A study of Oryctolagus cuniculus with 17 samples.

Results

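Platelet-derived growth factor (PDGF) genes and genes that mark lung fibroblasts were followed in the lungs of preterm rabbit pups raised in hyperoxia or normoxia. The genes were 9 chosen by their human gene name in the count table: the ligands PDGFA, PDGFB, PDGFC and PDGFD, the receptors PDGFRA and PDGFRB, the transcription factor gene TCF21, and the proteoglycan genes DCN and LUM. Of these 9, 8 had an entry among the 13827 genes of the table, each with 1 entry and each alone at its locus, and all 8 were among the 13142 genes tested. PDGFRA was not analysed here.

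PDGF ligands are secreted dimers that bind receptor tyrosine kinases. In the lung, PDGF-A from the epithelium acts mainly on fibroblasts and alveolar myofibroblast precursors that carry the alpha receptor, and PDGF-B from endothelial cells draws pericytes that carry the beta receptor to growing capillaries. PDGF-C and PDGF-D are secreted in a latent form and act after proteases have removed an inhibitory domain. TCF21 is a transcription factor of the lung mesenchyme and marks alveolar fibroblasts and lipofibroblasts, while decorin (DCN) and lumican (LUM) are small leucine-rich proteoglycans of the fibroblast matrix that bind collagen fibrils.

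New Zealand White pups were delivered by caesarean section on gestation day 28, so that all groups were preterm, and were kept in incubators on a milk replacer. Hyperoxia was 95% oxygen and normoxia 21% oxygen, for 3, 5 or 7 days, giving the groups HT3, HT5 and HT7 and the groups NT3, NT5 and NT7. RNA came from homogenates of the whole right lung, with 3 samples per group and 2 in HT5. The labels give separate samples and do not say whether pups shared a litter, so the p-values measure the spread between these samples.

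Each sample held between 13123731 and 18111086 counts with every locus counted once, and the 8 genes took between 0.0735% and 0.121% of the counts of a sample. Levels are CPM, counts scaled to a common library total after TMM normalization, and compare samples for the same gene but not different genes, since gene length is not taken into account. In whole lung, fewer cells of a type and less RNA per cell cannot be told apart. Fibroblast markers other than the genes described (COL1A1, COL1A2, COL3A1, MFAP4 and FBLN1) summed to between 5761 and 12563 CPM over all samples. On each day every hyperoxia sample lay below every normoxia sample in this sum. It was 7549 to 9114 CPM in HT3 and 10374 to 12563 CPM in NT3. On day 5 it was 5761 to 7314 CPM in HT5 and 8952 to 9860 CPM in NT5. In HT7 it was 7169 to 8267 CPM and in NT7 8432 to 10756 CPM. Muscle markers stood apart in HT3 replicate 2 and HT5 replicate 1, with summed levels of 399.7 and 346 CPM against at most 52.7 CPM in the other samples.

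On day 3, 0 of the 8 genes passed the test (adjusted p under 0.05 from edgeR's quasi-likelihood test with Benjamini-Hochberg adjustment over all genes), when 0.517% of all genes rose and 0.517% fell. PDGFA had an unadjusted p under 0.05 on that day, and with the Wald test of DESeq2 the count was also 0. On day 5, PDGFA and TCF21 were downregulated and 0 of 8 were upregulated, against 15.4% of all genes downregulated and 15.9% upregulated. On day 7, PDGFA, PDGFB, PDGFRB and TCF21 were downregulated and LUM was upregulated, which is 4 and 1 of 8. Of all genes, 23.7% were downregulated and 23.7% upregulated on that day. PDGFC, PDGFD and DCN did not pass on any day. The median log2 fold change (log2FC) of the 8 genes was -0.15, 0.00 and -0.48 on days 3, 5 and 7, and that of all genes tested lay between -0.02 and 0.00. None of the 8 genes met the thresholds the study set for its DEGs (adjusted p under 0.01 and a log2FC above 2 or below -2) on any day, which 0.0533%, 1.58% and 4.59% of all genes met on days 3, 5 and 7.

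**Figure D1:**
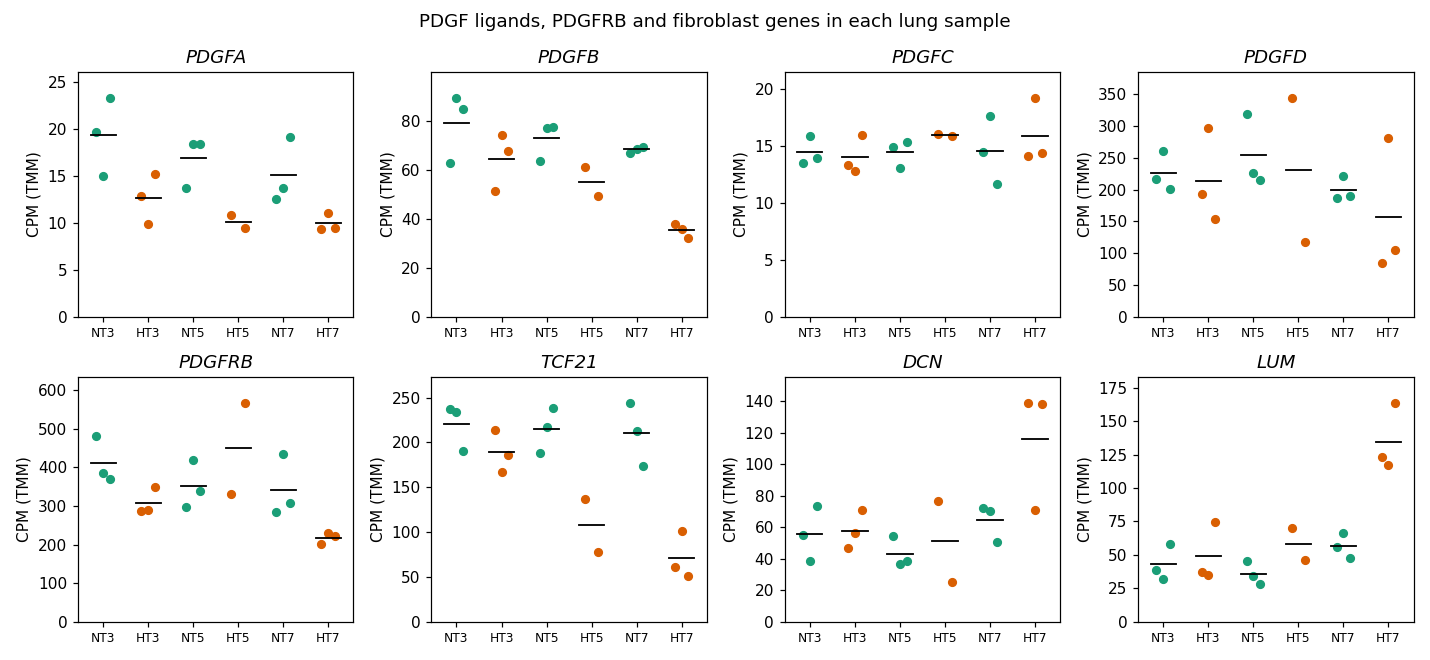
Level of each of the 8 genes in CPM (y axes, from 0, linear, a scale for each gene) in every lung sample of the 6 groups (x axes; normoxia green, hyperoxia orange), with a bar at the group mean. The HT7 samples lie below all NT7 samples for PDGFA, PDGFB, PDGFRB and TCF21 and above them for LUM, while PDGFD and DCN spread widely within hyperoxia.

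PDGFA, the ligand of alveolar myofibroblast precursors, is placed by the table on the unplaced scaffold GL019706 from 261 to 5683 on the reverse strand (ENSOCUG00000005660; coordinates are those of the deposited table, build OryCun2.0 in the submitters' processing notes). It had 12.8, 9.91 and 15.2 CPM in HT3, 10.8 and 9.41 CPM in HT5 and 9.34, 11.0 and 9.48 CPM in HT7. In normoxia it had 19.7, 15.02 and 23.3 CPM in NT3, 13.8, 18.5 and 18.4 CPM in NT5 and 12.5, 13.8 and 19.2 CPM in NT7. Hyperoxia samples lay below all normoxia samples of their day on days 5 and 7, and on day 3 the groups overlapped by a single HT3 sample that lay just above the lowest NT3 sample, while each HT3 sample lay below the NT3 sample of its replicate number. The log2FC was of like size on the 3 days. It was -0.61 (SE 0.21, adjusted p = 0.1801 by edgeR) on day 3, -0.74 (SE 0.24, adjusted p = 0.03209) on day 5 and -0.61 (SE 0.22, adjusted p = 0.03006) on day 7. The effect on day 7 minus that on day 3 was 0.00 (SE 0.31, adjusted p = 0.9955 by edgeR), so that passing on day 7 and not on day 3 does not show a difference between these days. Among fits that dropped a sample, the day 5 call held only without NT5 replicate 1, with adjusted p up to 0.2071 in the other fits. The day 7 call was lost without HT7 replicate 1, without HT7 replicate 3 and without NT7 replicate 3, where the log2FC was -0.40 (adjusted p = 0.1628 by edgeR). With only the groups compared, both calls were lost (adjusted p = 0.06749 on day 5 and 0.05795 on day 7 by edgeR), and the day 5 call was also lost with the replicate block (adjusted p = 0.06061).

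PDGFB, the ligand that endothelial cells release towards pericytes, lies on chromosome 4 from 84219959 to 84253229 on the forward strand (ENSOCUG00000038923). It had 51.1, 74.3 and 67.8 CPM in HT3, 61.1 and 49.1 CPM in HT5 and 37.7, 35.7 and 32.1 CPM in HT7. The normoxia samples had 62.8, 89.2 and 84.6 CPM in NT3, 63.7, 77.1 and 77.6 CPM in NT5 and 67.0, 68.3 and 69.4 CPM in NT7. The groups overlapped on day 3, when each HT3 sample lay below the NT3 sample of the same replicate number, parted narrowly on day 5, and on day 7 the highest hyperoxia sample had 37.7 CPM and the lowest normoxia sample 67.0 CPM. PDGFB was downregulated 1.94-fold on day 7, from a mean of 68.2 ± 1.21 CPM to 35.2 ± 2.84 CPM (SD, n = 3 each; log2FC -0.96, SE 0.16, adjusted p = 0.0001899 by edgeR). The log2FC was -0.29 (SE 0.15, adjusted p = 0.3845 by edgeR) on day 3 and -0.40 (SE 0.17, adjusted p = 0.08919) on day 5. At the same threshold (adjusted p under 0.05) the day 7 call held in 13 of 13 other settings, with log2FC values from -1.01 to -0.88. PDGFB did not meet the study's thresholds.

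The decrease in PDGFB on day 7 came with lower endothelial markers. Of 10 endothelial markers tested, 8 fell and 0 rose on day 7, against 23.7% of all genes in each direction, with a median log2FC of -1.85, led by the receptor tyrosine kinases TEK (-2.79) and KDR (-2.60). Their summed level was 1202 to 1570 CPM in HT7 and 3171 to 3720 CPM in NT7, and on day 5 it was 1713 to 1848 CPM in HT5 and 2981 to 3657 CPM in NT5. PECAM1 and VWF, which are likewise endothelial, did not pass on day 7, with log2FC values of -0.05 and 0.29. Relative to the summed endothelial markers of the same sample, PDGFB had a log2 ratio of -5.38, -5.07 and -5.57 in HT7 and -5.57, -5.77 and -5.61 in NT7. On day 5 the log2 ratio was -4.92 and -5.13 in HT5 and -5.55, -5.57 and -5.39 in NT5, so that both HT5 samples lay above all NT5 samples and 2 of the 3 HT7 samples above all NT7 samples. This ratio was added after seeing the data and has no test, and the part of the endothelial markers in the PDGFB result was not tested.

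PDGFC lies on chromosome 15 from 7015699 to 7225843 on the forward strand (ENSOCUG00000017242) and varied least between group means of the 4 ligand genes. It had 13.3, 12.8 and 15.9 CPM in HT3, 16.0 and 15.9 CPM in HT5 and 14.1, 19.2 and 14.4 CPM in HT7, and in normoxia 13.4, 15.8 and 13.9 CPM in NT3, 14.9, 13.05 and 15.3 CPM in NT5 and 14.4, 17.6 and 11.6 CPM in NT7. Groups overlapped on days 3 and 7, and both HT5 samples lay above the 3 NT5 samples by a small margin. No day passed the test, with log2FC values of -0.04 (SE 0.17), 0.14 (SE 0.19) and 0.13 (SE 0.17) on days 3, 5 and 7 and adjusted p from 0.5649 to 0.9402 by edgeR.

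PDGFD lies on chromosome 1 from 112364735 to 112638071 on the forward strand (ENSOCUG00000015312). Its levels were 193, 296 and 154 CPM in HT3, 344 and 117 CPM in HT5 and 84.8, 281 and 105 CPM in HT7. Normoxia samples were closer together, with 216, 261 and 201 CPM in NT3, 320 (319.7), 226 and 216 CPM in NT5 and 187, 221 and 190 CPM in NT7. In each hyperoxia group a single sample lay above the rest, HT3 replicate 2, HT5 replicate 1 and HT7 replicate 2, and the groups overlapped on every day. The coefficient of variation was 34.5%, 69.7% and 68.8% in HT3, HT5 and HT7 against 13.8%, 22.5% and 9.42% in NT3, NT5 and NT7. The log2FC was -0.08 (SE 0.42), -0.14 (SE 0.47) and -0.34 (SE 0.42) on days 3, 5 and 7, none of which passed (lowest adjusted p = 0.5182 by edgeR). Without HT7 replicate 2 the day 7 value was -1.06 and passed (adjusted p = 0.02579 by edgeR). The muscle markers summed to 399.7 CPM in HT3 replicate 2, 346 CPM in HT5 replicate 1 and 7.08 CPM in HT7 replicate 2, so they were high in only the former 2 of these 3 samples. The 7 alveolar type 2 markers were highest of their group in all 3, with a sum of 27972 CPM in HT3 replicate 2 (24752 and 24832 CPM in the other HT3 samples), 33083 CPM in HT5 replicate 1 (12624 CPM in the other) and 29399 CPM in HT7 replicate 2 (13415 and 16232 CPM in the others). In NT5, replicate 1 was highest for both PDGFD and this sum (24813 CPM), while in NT3 and NT7 the sample highest in PDGFD was not the highest in this sum. Other lists were also highest of their group in HT3 replicate 2, HT5 replicate 1 and HT7 replicate 2. They were the alveolar and lipofibroblast, the secondary crest myofibroblast and the mesothelial lists. In normoxia the mesothelial sum was highest in the same sample as PDGFD in NT3 and NT7. For the secondary crest sum this was so in NT5 and NT7, and for the alveolar and lipofibroblast sum in NT7. The lists named were picked out after their values were seen. The part of any list in the PDGFD levels was not tested.

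PDGFRB, the receptor that PDGF-B and PDGF-D dimers bind, is a defining gene of pericytes and lies on chromosome 3 from 31894796 to 31914092 on the reverse strand (ENSOCUG00000001725). It had 286, 289 and 350.0 CPM in HT3, 332 and 566 CPM in HT5 and 203, 229 and 221 CPM in HT7. In normoxia the values were 480.2, 386 and 370 (369.6) CPM in NT3, 297, 419 and 339.8 CPM in NT5 and 285, 434 and 307 CPM in NT7. All HT3 samples lay below all NT3 samples, HT5 replicate 2 had the highest level of all 17 samples, and all HT7 samples lay below all NT7 samples. PDGFRB was downregulated 1.57-fold on day 7, from 342 ± 80.4 CPM to 218 ± 13.6 CPM (SD, n = 3 each; log2FC -0.65, SE 0.20, adjusted p = 0.01519 by edgeR). Values on the earlier days did not pass, at -0.42 (SE 0.20, adjusted p = 0.3354 by edgeR) on day 3 and 0.35 (SE 0.22, adjusted p = 0.2413) on day 5. The day 5 value rested on 1 sample, since it was -0.10 without HT5 replicate 2 and 0.68 without HT5 replicate 1 (adjusted p = 0.03454 by edgeR). The day 7 call was lost without NT7 replicate 2 (-0.44, adjusted p = 0.09627) and without HT7 replicate 1 (adjusted p = 0.0537).

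Other pericyte markers were also lower on day 7. Of 11 tested, 8 fell and 1 rose, against 23.7% of all genes in each direction, with a median log2FC of -1.09. NDUFA4L2 (-2.57) and COX4I2 (-2.50), which encode mitochondrial proteins typical of pericytes, fell most, and ABCC9 (1.29), a potassium channel subunit, rose. NOTCH3 and KCNJ8 did not pass, with values of -0.08 and -0.11. On day 5, 5 of the 11 fell and 1 rose (median log2FC -0.68), against 15.4% and 15.9% of all genes. The 11 genes summed to 409 to 451 CPM in HT7 and 529 to 692 CPM in NT7, and to 546 CPM in HT5 replicate 1 and 867 CPM in HT5 replicate 2, the sample in which PDGFRB was also highest. The log2 ratio of PDGFRB to this sum was -1.01, -0.90 and -1.03 in HT7 and -0.90, -0.67 and -1.07 in NT7, ranges that overlapped. On day 3 it was -1.21, -1.44 and -1.15 in HT3, all below the -0.65, -0.98 and -1.07 of NT3, and on day 5 it was -0.72 and -0.62 in HT5, both above the -1.13, -0.88 and -1.005 of NT5. The part of these markers in the PDGFRB result was not tested.

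TCF21, the mesenchymal transcription factor gene, fell most of the 8 on days 5 and 7. It lies on chromosome 12 from 124320149 to 124322955 on the forward strand (ENSOCUG00000017761). It had 213, 168 and 186 CPM in HT3, 137 and 77.4 CPM in HT5 and 60.7, 101 and 51.6 CPM in HT7. In normoxia it stayed between 174 and 244 CPM, with 238, 234 and 191 CPM in NT3, 189, 217 and 238 CPM in NT5 and 244, 213 and 174 CPM in NT7. The groups overlapped on day 3, although each HT3 sample lay below the NT3 sample of its replicate number, and on days 5 and 7 every hyperoxia sample lay below every normoxia sample, with HT7 replicate 2 closest to normoxia on day 7. TCF21 was downregulated 2.00-fold on day 5 (log2FC -1.001, SE 0.27, adjusted p = 0.01321 by edgeR) and 2.96-fold on day 7 (log2FC -1.56, SE 0.24, adjusted p = 0.000133). On day 3 the log2FC was -0.23 (SE 0.24, adjusted p = 0.7046 by edgeR). At an adjusted p under 0.05 the day 7 call held in 13 of 13 other settings, from -1.89 to -1.37, though not at the study's thresholds. The day 5 call was lost without HT5 replicate 2 (log2FC -0.66).

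**Figure D2:**
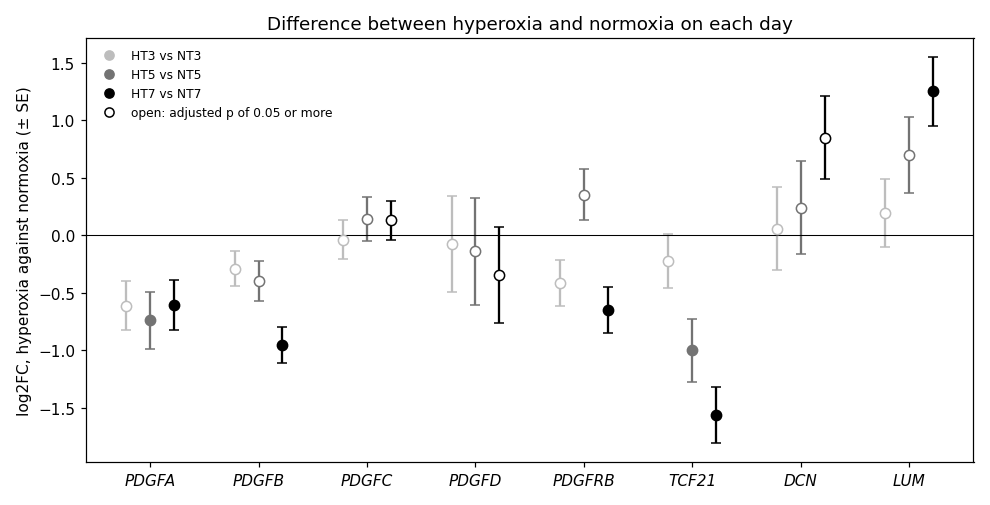
Log2FC of hyperoxia against normoxia (y axis, ± SE from edgeR's fit) for each of the 8 genes (x axis) on day 3 (light grey), day 5 (dark grey) and day 7 (black), with open symbols for an adjusted p of 0.05 or more. TCF21 moved from -0.23 to -1.56 and LUM from 0.19 to 1.25 between days 3 and 7, while PDGFA stayed between -0.74 and -0.61.

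Genes of the same fibroblast class went with TCF21. The list of alveolar fibroblast and lipofibroblast genes (20 tested, without TCF21) had 15 genes downregulated and 2 upregulated on day 5, with a median log2FC of -1.20, and 16 downregulated and 3 upregulated on day 7, with a median of -1.76. On day 3, 0 of the 20 passed. Of all genes, 15.4% fell and 15.9% rose on day 5 and 23.7% went each way on day 7. The largest decreases on day 7 were those of NPNT (-3.52), a basement membrane protein, and of its integrin receptor subunit ITGA8 (-2.61), with adjusted p of 5.712e-06 and 0.0001142 by edgeR. The largest increases were those of PLIN2 (2.11), the coat protein of lipid droplets, and FGF7 (1.93), a growth factor for epithelium, and LPL, the lipoprotein lipase of lipofibroblasts, also rose (1.39). The 20 genes summed to 2684 to 3672 CPM in HT7 and 7850 to 8582 CPM in NT7. The log2 ratio of TCF21 to this sum was -5.84, -5.19 and -5.70 in HT7 and -5.01, -5.34 and -5.58 in NT7, so that the ranges overlapped, as they did on days 3 and 5, and the part of this list in the TCF21 result was not tested.

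DCN encodes decorin and lies on chromosome 4 from 70357924 to 70394929 on the reverse strand (ENSOCUG00000006969). It had 46.8, 56.2 and 70.8 CPM in HT3, 76.9 and 25.1 CPM in HT5 and 139, 71.1 and 138 CPM in HT7. In normoxia it had 54.8, 38.9 and 73.7 CPM in NT3, 54.5, 36.5 and 38.3 CPM in NT5 and 72.5, 70.2 and 50.9 CPM in NT7. HT7 replicates 1 and 3 lay well above all other samples, but HT7 replicate 2 fell within the NT7 range, and the HT5 samples held both the highest and the lowest level of day 5. The day 7 log2FC was 0.85 (SE 0.36) and did not pass (adjusted p = 0.06533 by edgeR), with an unadjusted p under 0.05. It passed in 4 of 13 other settings, among them DESeq2 (0.85, adjusted p = 0.03589) and the fit without HT7 replicate 2 (1.11, adjusted p = 0.01907 by edgeR). On days 3 and 5 the values were 0.06 (SE 0.36, adjusted p = 0.9646 by edgeR) and 0.24 (SE 0.40, adjusted p = 0.6825).

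LUM encodes lumican and lies beside DCN, from 70315437 to 70323221 on the same strand of chromosome 4 (ENSOCUG00000005592), 34702 bases away with no other entry of the table between them. It had 37.4, 35.1 and 74.8 CPM in HT3, 70.1 and 46.6 CPM in HT5 and 124, 117 and 163 CPM in HT7. In normoxia the samples had 38.7, 32.05 and 58.3 CPM in NT3, 45.5, 34.2 and 28.2 CPM in NT5 and 56.0, 66.1 and 48.0 CPM in NT7. The 3 HT7 samples were the highest of all 17 samples, both HT5 samples lay above the NT5 samples, replicate 2 only just, and on day 3 the groups overlapped. LUM was upregulated 2.38-fold on day 7, from 56.7 ± 9.09 CPM to 135 ± 25.0 CPM (SD, n = 3 each; log2FC 1.25, SE 0.30, adjusted p = 0.003114 by edgeR). At an adjusted p under 0.05 this held in 13 of 13 other settings, from 1.10 to 1.37, though not at the study's thresholds. The log2FC was 0.19 (SE 0.30, adjusted p = 0.8086 by edgeR) on day 3 and 0.70 (SE 0.33, adjusted p = 0.1162) on day 5.

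Most other small leucine-rich proteoglycan genes moved the other way. Of 10 tested besides DCN and LUM, 0 passed on day 3, 5 fell and 0 rose on day 5 (median log2FC -0.94), and 8 fell and 1 rose on day 7 (median -1.93). Over all genes 15.4% fell on day 5, and 23.7% fell and 23.7% rose on day 7. OMD (osteomodulin) and PRELP had the largest decreases on day 7, at -2.82 (SE 0.58, adjusted p = 0.001048 by edgeR) and -2.75 (SE 0.28, adjusted p = 5.338e-06). The gene that rose was EPYC (epiphycan; 1.80, SE 0.59, adjusted p = 0.02144 by edgeR), at a low level of 2.95 CPM in HT7 and 0.837 CPM in NT7. OPTC had 27 counts over all samples and was not tested.

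On day 7 the direction followed the position of these genes in the genome, a grouping made after their values were seen and given without a test. EPYC, KERA (keratocan), LUM and DCN lie next to each other on chromosome 4, from 70179774 to 70394929, and had day 7 log2FC values of 1.80, 0.65, 1.25 and 0.85, of which those of KERA (SE 0.67, adjusted p = 0.4452 by edgeR) and DCN did not pass. On days 3 and 5, 0 of these 4 passed and they did not share a direction, EPYC being at -0.27 and -0.64. OGN, OMD, ASPN and ECM2 lie in a row on chromosome 1, from 70251553 to 70372106, and all fell on day 7, with log2FC values of -1.92, -2.82, -1.93 and -2.30. OGN (osteoglycin) had a mean of 1012 CPM in NT7 and 267 CPM in HT7. PRELP and FMOD (fibromodulin; -2.17) on chromosome 16, PODN (podocan; -1.43) on chromosome 13 and BGN (biglycan; -0.76) on scaffold GL018816 fell as well. The entries of PRELP and FMOD overlap on opposite strands, and since the counting program is not given in the sources used here, whether their reads were kept apart is unknown.

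**Figure D3:**
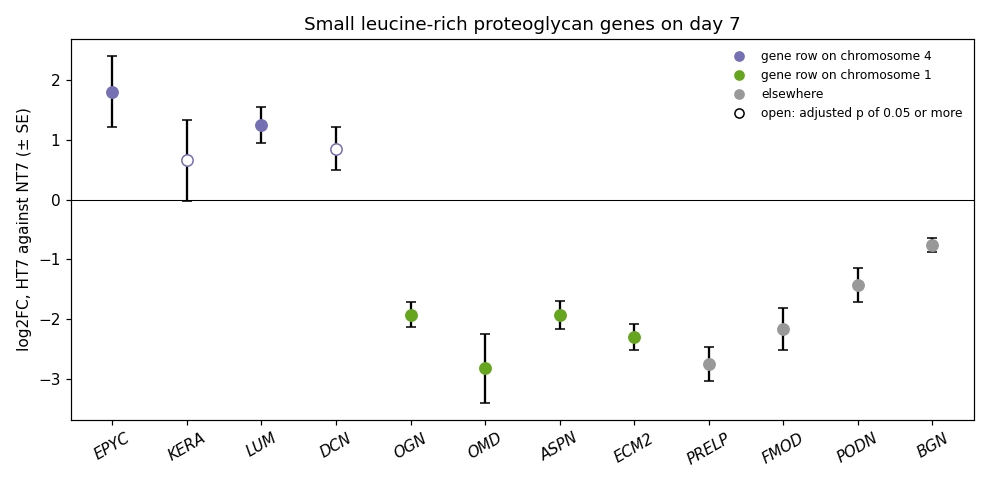
Log2FC of HT7 against NT7 (y axis, ± SE from edgeR's fit) of the 12 small leucine-rich proteoglycan genes tested (x axis), coloured by the gene row they lie in, with open symbols for an adjusted p of 0.05 or more. The 4 genes of the chromosome 4 row lie between 0.65 and 1.80, and the other 8 lie between -2.82 and -0.76.

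The levels of DCN and LUM were also set against each other. The log2 ratio of DCN to LUM within a sample, in which gene length cancels between samples, lay between 0.09 and 0.50 in all 9 normoxia samples. It was 0.32, 0.68 and -0.08 in HT3, 0.13 and -0.89 in HT5 and 0.17, -0.72 and -0.24 in HT7. It was below 0 in 4 of the 8 hyperoxia samples and in none of the normoxia samples, and the ranges of HT7 and NT7 overlapped. For the ligand and receptor pair, the log2 ratio of PDGFB to PDGFRB was -2.42, -2.68 and -2.78 in HT7 and -2.08, -2.66 and -2.14 in NT7, which overlapped. In HT5 it was -2.44 and -3.52, against -2.22, -2.44 and -2.13 in NT5. These ratios are descriptions without a test.

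**Figure D4:**
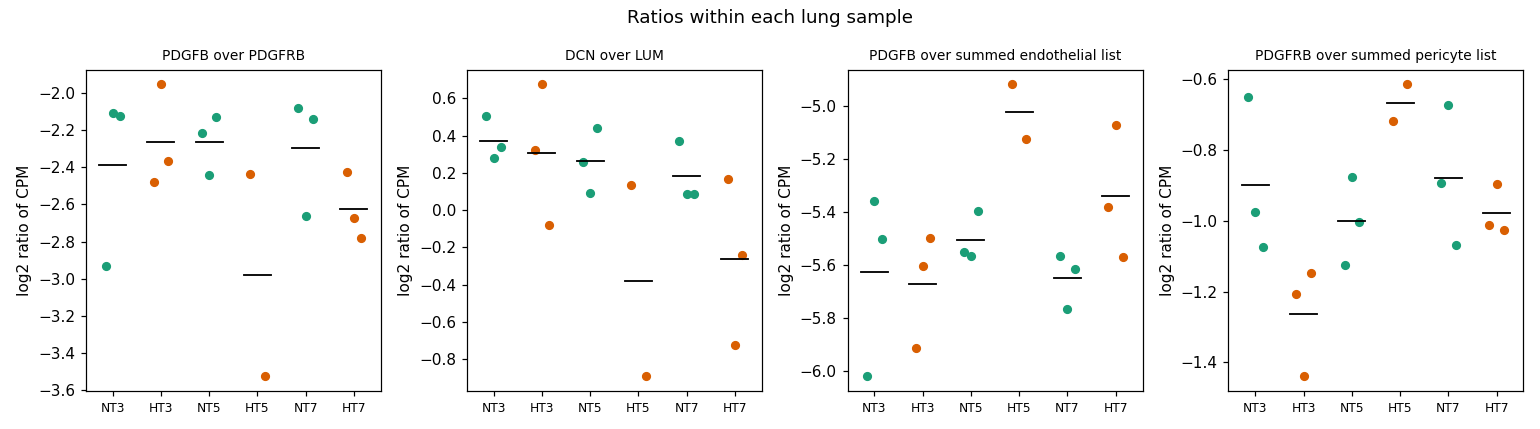
Log2 ratios of CPM within each sample (y axes, linear in log2 units, not starting at 0) by group (x axes; normoxia green, hyperoxia orange; bars at group means) for PDGFB over PDGFRB, DCN over LUM, PDGFB over the summed endothelial markers and PDGFRB over the summed pericyte markers. The DCN over LUM ratio is above 0 in all normoxia samples and below 0 in 4 hyperoxia samples, and PDGFB over the endothelial markers is higher in HT5 than in NT5.

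A change in the effect of hyperoxia over time was tested as the day 7 effect minus the day 3 effect. It passed for PDGFB (-0.66, SE 0.22, adjusted p = 0.04357 by edgeR) and TCF21 (-1.34, SE 0.34, adjusted p = 0.01364), both towards lower levels on day 7, when 11% of all genes passed in that direction and 9.52% in the other. For LUM the difference was 1.06 (SE 0.42, adjusted p = 0.08563 by edgeR) and for DCN 0.79 (SE 0.51, adjusted p = 0.2844), and neither passed. PDGFC, PDGFD and PDGFRB had differences of 0.17, -0.27 and -0.23 with adjusted p from 0.5954 to 0.7852 by edgeR. At an adjusted p under 0.05 the TCF21 call held in 19 of 19 other settings (-1.67 to -1.15), and it was lost at an adjusted p under 0.01 and at the study's thresholds. With each sample left out in turn, that of PDGFB held in 3 of 12 fits, with values from -0.81 to -0.52 and adjusted p up to 0.1098. It was lost without any NT7 sample, without HT3 replicate 2 or 3, without HT7 replicate 1 or 3 and without NT3 replicate 1 or 3. LUM passed in 3 other fits, which were DESeq2 (adjusted p = 0.04625), the replicate block and the fit without HT3 replicate 3 (adjusted p = 0.01275 by edgeR).

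Within hyperoxia, 4 of the 8 genes differed between days 3 and 7. PDGFB (-0.87, SE 0.16, adjusted p = 0.0004686 by edgeR) and TCF21 (-1.41, SE 0.24, adjusted p = 0.0003707) were lower in HT7 than in HT3, when 22% of all genes were lower, and DCN (1.002, SE 0.36, adjusted p = 0.03484) and LUM (1.46, SE 0.30, adjusted p = 0.001313) were higher, when 22.3% were higher. The DCN call was lost without HT3 replicate 1 or 2 and without HT7 replicate 1 or 3. PDGFRB was at -0.50 (SE 0.20, adjusted p = 0.05455 by edgeR) and PDGFA at -0.35 (SE 0.21, adjusted p = 0.202), and PDGFRB passed with DESeq2, with 1 entry per locus and with only the groups compared. Between NT3 and NT7, 0 of the 8 genes passed, and 0% of all genes passed in either direction (824 of all genes and 0 of the 8 had an unadjusted p under 0.05, and DESeq2 called 39 genes and 0 of the 8). The log2FC values of the 8 genes over time in normoxia lay between -0.35 (PDGFA) and 0.40 (LUM). The comparison of HT7 with HT3 shares the HT7 samples, and that of NT7 with NT3 the NT7 samples, with the comparison of HT7 with NT7, so they are not independent of it.

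Genes whose samples do not overlap at all were also counted. On day 3, 1 of the 8 genes had every hyperoxia sample below every normoxia sample (PDGFRB) and 0 had every sample above, when this was so for 13.9% and 12.8% of all genes. On day 5, 3 lay below (PDGFA, PDGFB and TCF21) and 2 above (PDGFC and LUM), against 29.2% and 26.5% of all genes, and on day 7, 4 lay below (PDGFA, PDGFB, PDGFRB and TCF21) and 1 above (LUM), against 27.2% and 27.3%.

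The list for the processing and binding of PDGF outside the cell had 13 genes tested, among them ENG, a TGF-beta co-receptor gene. Of these 13, 0 passed on day 3, 5 fell and 1 rose on day 5, and 6 fell and 1 rose on day 7. The median log2FC was -0.18 on day 7. Of all genes, 15.4% fell and 15.9% rose on day 5 and 23.7% went each way on day 7. PDGFRL, which encodes a protein like the extracellular part of a PDGF receptor, fell most, with a log2FC of -2.41 (SE 0.40, adjusted p = 0.0006934 by edgeR) on day 5 and of -2.66 (SE 0.34, adjusted p = 3.117e-05) on day 7. PCSK5 (-1.14), a proprotein convertase, NRP1 (-1.07), a co-receptor, SPARC (-1.07), a matrix protein that binds PDGF, CSPG4 (-0.94), the NG2 proteoglycan of pericytes, and ENG (-0.86) fell on day 7 as well. ST14, the protease matriptase that can activate PDGF-D, rose, with a log2FC of 1.32 (SE 0.28, adjusted p = 0.001393 by edgeR). FURIN, PLAT and PLAU, proteases that can process PDGF ligands, did not pass on day 7, with values of 0.28, 0.54 and 0.04.

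Inside the cell, 23 genes that relay the receptor signal were tested and went both ways. On day 3, 0 passed, on day 5, 5 fell and 4 rose, and on day 7, 10 fell and 5 rose, with a median log2FC of -0.07 on day 7. The shares of all genes were those given for the preceding list. PIK3R1 (-1.36), the regulatory subunit of phosphoinositide 3-kinase, and the docking protein gene GAB1 (-1.13) had the largest decreases on day 7, and PTPN2 (0.95), a phosphatase of receptor tyrosine kinases, and MAP2K1 (0.87), a kinase of the MAP kinase cascade, had the largest increases.

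Genes of other fibroblast states were counted beside the same shares of all genes, 15.4% lower and 15.9% higher on day 5 and 23.7% in each direction on day 7, and the lists were not tested against each other. Of 17 secondary crest myofibroblast genes, 0 passed on day 3, 11 fell and 1 rose on day 5, and 11 fell and 2 rose on day 7 (median log2FC -0.9998). ENPP2 (-3.51), which makes lysophosphatidic acid, and FGF18 (-2.31) fell most on day 7, TGFBI (1.46) and DES (0.75) rose, and the smooth muscle actin gene ACTA2 was at -0.01. Of 14 adventitial fibroblast genes, 0 passed on day 3, 4 fell and 0 rose on day 5, and 7 fell and 3 rose on day 7 (median -0.61), with MFAP4 (-1.95) and GSN (-1.71) lowest and SFRP1 (2.47), a WNT antagonist, and FBLN1 (1.33) highest. The 17 genes of fibrillar collagens and activated fibroblasts had median log2FC values of -0.04 on day 5 and -0.03 on day 7. THBS2 alone fell on day 3, 5 rose and 5 fell on day 5, and 6 rose and 4 fell on day 7. For the day 7 effect minus the day 3 effect, 7 passed towards higher and 0 towards lower levels (median 0.40). Of all genes, 9.52% passed towards higher and 11% towards lower levels. The 17 genes summed to 17310.6 to 18388.5 CPM in HT7 and 12363.5 to 16464.3 CPM in NT7. The 6 that rose on day 7 included THBS1 (3.34), whose product activates latent TGF-beta, and the 4 that fell included POSTN (-1.18) and FAP (-0.86). COL1A1 (-0.03) and COL3A1 (-0.25) did not pass.

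**Figure D5:**
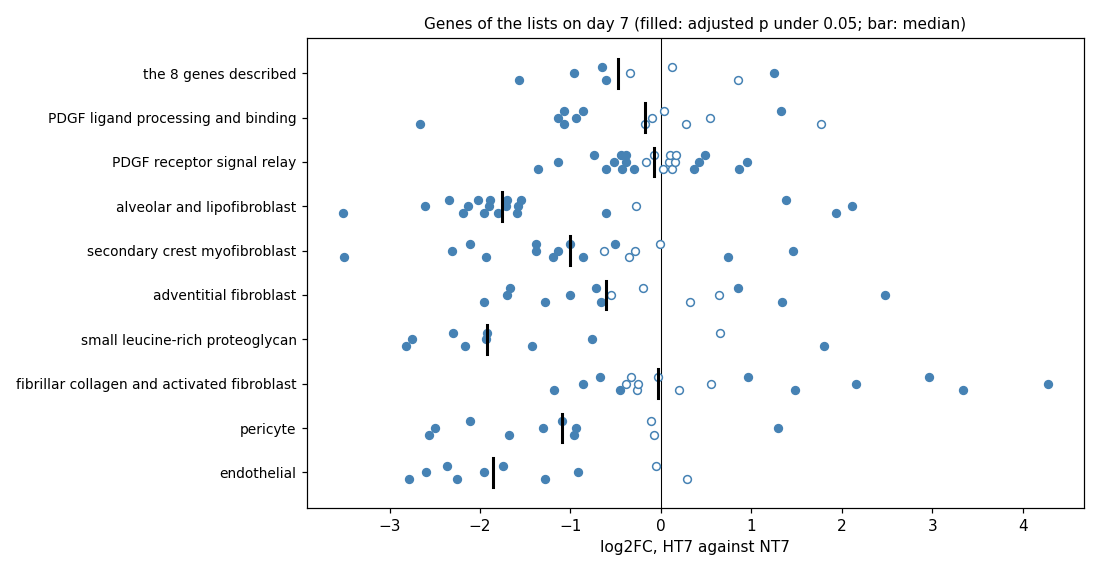
Log2FC of HT7 against NT7 (x axis) of every tested gene of each list (rows), filled where the adjusted p was under 0.05, with a black bar at the median of the list; some genes stand in 2 lists. Medians lie at -1.76 for alveolar and lipofibroblast genes, -1.93 for the other small leucine-rich proteoglycans and -1.85 for endothelial markers, and at -0.07 for genes of the receptor signal relay.

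Markers of the other cells that a lung homogenate can hold were described in the same way, beside 23.7% of all genes lower and 23.7% higher on day 7. On that day, 5 of 7 alveolar type 1 markers fell (median log2FC -2.40), as did 3 of 7 smooth muscle markers while 1 rose, 2 of 5 mesothelial markers, 6 of 7 lymphocyte markers and 1 of 3 megakaryocyte markers. The lymphocyte markers were at a low level, with sums of 1.69 to 3.29 CPM in HT7 and 8.95 to 14.6 CPM in NT7. Of alveolar type 2 markers, 2 of 7 fell and 1 rose. Macrophage markers summed to 1905 to 2458 CPM in HT7 and 1142 to 1368 CPM in NT7, with 3 of 9 genes up and 1 down (median log2FC -0.12). Of 8 neutrophil markers, 2 rose and 1 fell. With 3 to 9 genes in these lists, a count of 1 to 3 is not set apart from those shares. Of 5 fibroblast markers besides the genes described, 2 fell (COL1A2 and MFAP4) and 1 rose (FBLN1), and their sum was 7169 to 8267 CPM in HT7 and 8432 to 10756 CPM in NT7. Of 15 proliferation genes, 8 fell and 1 rose on day 5, and 1 fell and 2 rose on day 7. The muscle list had 4 of 9 genes up on day 5 and 0 called on day 7. On day 5, 15.4% of all genes fell and 15.9% rose. The part of these markers in the levels of the 8 genes was not tested.

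For the 5 genes that passed on some day, the genes with the most like pattern were sought among 11460 candidates, by the root-mean-square difference between 6 group means of log2 CPM, each centred on its own mean. For PDGFA they were PAPPA2, TAOK2 and TMEM218 (differences of 0.0531, 0.0727 and 0.0759 on the log2 scale). For PDGFB they were CEP85L, TMC5 and UNC5C (0.0400, 0.0504 and 0.0522). PDGFRB was nearest to PGAP1 (0.0672), SCN3B (0.101) and DUSP10 (0.105). Near to TCF21 were CYYR1 and MMRN2 (0.0631 and 0.0659), and nearest to LUM were SNORD87, FOSL2 and KCNN4 (0.0999, 0.135 and 0.139). The median difference over all candidates was between 0.421 and 0.678.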

How the data were processed

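RNA-seq covered 17 samples of right lung homogenate from preterm rabbit pups. The authors deposited raw counts per locus from stranded poly(A) libraries, without normalization. The submitters' processing notes name STAR 2.7.10a and the build OryCun2.0, and the counting program is not given in the sources used here. All columns of the table were used.

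Genes were chosen by their human gene name, taking the entry with the highest total. These genes, the lists and the tests were chosen with earlier results of these data known. The analysis used edgeR 4.0.16 under R 4.3.3. Of 13827 entries, 13142 passed filterByExpr and 685 were not tested. TMM factors lay between 0.958 and 1.05. Quasi-likelihood tests used 1 fit of all 17 samples with a mean for each of the 6 groups, from which HT5 with 2 samples borrowed its spread. The Benjamini-Hochberg adjustment ran over the 13142 genes, with a threshold of 0.05. Log2FC values used a prior count of 0.125 and log2 ratios a pseudocount of 0.125. The depth gave at least 157 counts for each of the 8 genes in every sample. Replicates of every group differed by more than counting noise.

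Lists came from general knowledge and are described by counts and medians only. From each list, up to 2 rising and 2 falling genes with the largest day 7 changes among those that passed could be named, along with genes that describe a marker list, and further genes named from the lists were chosen after their values were seen. For each gene that passed on some day, 3 genes of most like pattern were named, from those whose average log2 CPM was 1 or more. Some genes that these rules select are not reported here.

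The alternatives were DESeq2 1.42.0, RLE size factors, no count filter, 1 entry per locus, only the groups compared, other thresholds, a prior count of 2, a pseudocount of 0.5, the replicate number within a day as a block, and leaving out each sample. The prior count of 2 altered the log2FC alone, so this setting, counted among the others, could not change a call. Deviations from group means of samples with the same number correlated at 0.175, 0.121 and 0.243 on day 3. The values were 0.258 and 0.139 on day 5, and 0.230, 0.150 and 0.0863 on day 7. Samples with different numbers lay between -0.2243 and 0.04218 on day 3. They lay between -0.2584 and 0.1955 on day 5 and between -0.1944 and 0.07064 on day 7. HT5 replicate 2 correlated more with NT5 replicate 3 (0.1955) than with NT5 replicate 2. The labels do not say what the numbers stand for. Scripts were tested on simulated data. Figures were drawn in Python 3.11 (matplotlib 3.10.9, pandas 2.3.3).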

Additional observations from a re-analysis of the deposited data

Results flagged for a closer look

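The difference between hyperoxia and normoxia itself differed between day 3 and day 7 for 2 of the 8 genes, by edgeR's quasi-likelihood test of the day 7 effect minus the day 3 effect, when 11% of all genes passed towards lower and 9.52% towards higher levels on day 7. For PDGFB it was -0.66 on the log2 scale (SE 0.22, adjusted p = 0.04357), from -0.29 on day 3 to -0.96 on day 7, and this call held in 3 of 12 fits without a sample, with adjusted p up to 0.1098 by edgeR. For TCF21 it was -1.34 (SE 0.34, adjusted p = 0.01364), from -0.23 on day 3 to -1.56 on day 7, and this call held in 12 of 12 such fits. In both genes the 3 HT7 samples lay below all 3 NT7 samples, while HT3 and NT3 overlapped. Each HT3 sample lay below the NT3 sample of the same replicate number in both genes, and with the replicate block the day 3 values were -0.29 for PDGFB (adjusted p = 0.2766 by edgeR) and -0.23 for TCF21 (adjusted p = 0.6494).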

How the results depend on the processing

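PDGFB, TCF21 and LUM passed on day 7 in 13 of 13 other settings at an adjusted p under 0.05. The count of the 8 genes passing on day 7 was 5, and became 3 at an adjusted p under 0.01, 0 at the study's thresholds and 3 to 7 with each sample left out, lowest without HT7 replicate 1 and highest without HT7 replicate 2. It was 6 with DESeq2 and with the replicate block, which added DCN, and 5 with only the groups compared, with DCN called and PDGFA not. On day 5 the count of 2 became 1 with only the groups compared, 1 with the replicate block, 0 at an adjusted p under 0.01, 0 at the study's thresholds and 0 to 2 with each sample left out, lowest without HT5 replicate 2. For the day 7 effect minus the day 3 effect the count of 2 became 3 with DESeq2 and with the replicate block, which added LUM, 0 at an adjusted p under 0.01, 0 at the study's thresholds and 1 to 2 with each sample left out. Between HT7 and HT3 the count of 4 became 5 with DESeq2, with 1 entry per locus and with only the groups compared, each adding PDGFRB, 3 at an adjusted p under 0.01, where DCN was lost, 0 at the study's thresholds, and 3 to 5 with each sample left out. On day 3 and between NT7 and NT3 it was 0 in all settings.

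The replicate block took the day 5 call of PDGFA (-0.66, adjusted p = 0.06061 by edgeR), and added DCN on day 7 (0.80, adjusted p = 0.03957) and LUM for the day 7 effect minus the day 3 effect (1.09, adjusted p = 0.0147). It changed no other call on days 3, 5 and 7, and none on day 3. Among the values whose direction turned, DCN on day 5 was -0.012 with the block, and the day 7 effect minus the day 3 effect of PDGFA was -0.011 with 1 entry per locus and -0.0094 with only the groups compared. With each sample left out, on day 3 PDGFC ran from -0.14 to 0.033, PDGFD from -0.39 to 0.11, DCN from -0.15 to 0.31 and LUM from -0.24 to 0.47. On day 5 DCN ran from -0.78 to 0.82, PDGFD from -1.12 to 0.42 and PDGFRB from -0.10 to 0.68. On day 7 PDGFC ran from -0.020 to 0.29, and the day 7 effect minus the day 3 effect from -0.15 to 0.21 for PDGFA and from -0.99 to 0.041 for PDGFD. None of these values passed in the fits where they turned. The causes were not tested.

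Of 456 values of the 8 genes under other settings, 401 kept direction and side of the threshold, 22 lost their call, 9 gained a call and 24 turned direction. Over all genes, 136 passed on day 3, against 505 with DESeq2, 281 with only the groups compared, 37 with the replicate block and as few as 31 without a sample. On day 5, 4115 passed, against 2412 with only the groups compared and 1158 without HT5 replicate 2, where the lone HT5 sample was assumed to vary like the other groups. Ratios with PDGFRA were planned and not run, since PDGFRA was not analysed here. A pseudocount of 0.5 moved no group difference in a ratio by more than the spread between samples.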
